A study of Mus musculus with 8 samples.

Results

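The genes described here are Zic1, Zic4, Zic2 and Zic5, 4 members of the Zic family of zinc finger transcription factors, whose DNA methylation was compared in mouse proximal colon organoids. The genes were selected on the listed methylation differences of these same comparisons and given by name, and each was represented by every 200 bp tile of the authors' deposited tables that overlapped its RefSeq span in GRCm38 or the 2 kb on either side. This gave 54 distinct tiles of the 53375 distinct tiles in the deposited tables, for 4 of 21887 protein-coding genes. All 4 genes had tiles in each within-line comparison, and no filter on low values was applied.

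Zic proteins bind DNA through a row of C2H2 zinc fingers related to those of the GLI proteins, the transcription factors of Hedgehog signalling. They are known from the embryo, where they act in the neural plate, neural crest, cerebellum and somites. In the mouse, Zic1 and Zic4 are neighbours that point away from each other and act together in cerebellar growth, and Zic2 and Zic5 form a second pair with roles in forebrain formation, neural tube closure and neural crest. The roles named here lie in the nervous system and the body axis of the embryo.

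Methylation was read by reduced representation bisulfite sequencing, a method that samples CpG-rich parts of the genome, in 8 libraries in 4 groups of 2, and both organoid lines, numbered 1 and 3, are present in every group. The first group carried BrafV600E, the constitutively active BRAF kinase, switched on by lentiviral Cre from a heterozygous Cre-activable allele, and was selected in Base medium without stem-cell niche factors after 5 months. It was set against the same lines with the empty lentiviral vector at 5 months in full medium. The other comparison set empty-vector organoids after 12 months (line 1) or 14 months (line 3) against empty-vector organoids of the same line after 2 months, all in full medium. The mice were male and about 40 days old, and each library had a final culture of 3 weeks. All groups thus descend from mice that carry the uninduced allele, and every control received a lentivirus. The oncogene and the change of medium cannot be told apart in the first comparison.

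Every value is a difference in percentage points between 1 library and 1 other library of the same line, so it has no replicate within the line and the lines are the only replicates. Only tiles with a difference of 20 points or more and a q-value no higher than 0.01 are listed, without read counts, so the depth behind a tile is unknown. A tile that is not listed may be unchanged or uncovered, and a mean over listed tiles cannot lie near 0 unless gains and losses cancel. Methylation levels and cell type markers were not analysed here, and a changed mix of cells cannot be told apart from a change within cells. Titles were followed where labels disagreed: the 14-month line 3 library is tagged as 2 months elsewhere, and the line 1 BrafV600E library names line 3 in its source field. Counts of gains and losses at each gene are given for each line, while means over lines and counts summed over lines rest on both. The members were chosen with these values known, so the counts below are descriptions without a test.

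The promoters of 3 members were in the RefSeq table of GRCm38.p6, which gives 250 bases before and 50 bases after 1 annotated start of a gene. For Zic1 and Zic5 that start is the end of the gene span used here, while for Zic4 it lies 3.34 kb inside the span, so the Zic4 sequence is not at the outer end of its span. The sequences are shown because listed tiles cover the entries of Zic1 and Zic5 but not that of Zic4, and capitals mark each CG, the dinucleotide whose cytosine can be methylated.
Zic1, chr9:91365719-91366018, minus strand: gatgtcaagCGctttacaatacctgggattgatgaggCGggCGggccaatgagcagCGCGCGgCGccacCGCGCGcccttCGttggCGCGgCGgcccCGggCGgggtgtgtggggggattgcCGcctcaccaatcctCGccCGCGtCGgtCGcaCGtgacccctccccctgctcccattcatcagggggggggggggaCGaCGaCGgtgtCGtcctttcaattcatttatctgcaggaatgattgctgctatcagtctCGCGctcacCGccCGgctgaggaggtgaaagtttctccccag
Zic4, chr9:91368722-91369021, plus strand: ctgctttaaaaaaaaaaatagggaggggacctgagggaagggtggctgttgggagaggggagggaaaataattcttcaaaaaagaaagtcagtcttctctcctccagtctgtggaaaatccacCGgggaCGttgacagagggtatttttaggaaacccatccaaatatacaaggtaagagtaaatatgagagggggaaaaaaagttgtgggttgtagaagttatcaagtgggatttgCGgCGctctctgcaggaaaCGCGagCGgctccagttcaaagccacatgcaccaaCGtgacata
Zic5, chr14:122465609-122465908, minus strand: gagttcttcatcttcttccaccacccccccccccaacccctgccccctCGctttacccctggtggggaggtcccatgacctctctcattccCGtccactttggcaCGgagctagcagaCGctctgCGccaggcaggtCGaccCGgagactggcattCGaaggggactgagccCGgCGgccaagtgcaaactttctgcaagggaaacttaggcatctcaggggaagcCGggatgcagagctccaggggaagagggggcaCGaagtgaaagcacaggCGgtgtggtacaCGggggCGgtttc
The Zic1 promoter held 31 CG, a count that 10.6% of the 32851 promoter entries of this length reached, and 30 of the 31 lay in 2 listed tiles. The tile that covers most of this entry, chr9:91365801-91366000, was listed only with long culture in line 3. The other, chr9:91365601-91365800, was listed with BrafV600E in line 1 and with long culture in line 3. In the Zic5 promoter 12 of 15 CG lay in a listed tile, and 34.6% of promoter entries held as many CG. The Zic4 entry held 8 CG, close to the median of 7 over all entries, and 0 listed tiles. The tile at the outer end of the Zic4 span, chr9:91365601-91365800, was listed as a gain and also covers the Zic1 start. The letters CCGG, searched on both strands and read the same on each, occurred 2, 1 and 3 times in the promoters of Zic1, Zic4 and Zic5, and each contains 1 of the CG in capitals. CCGG is the site of MspI, the enzyme most often used for this method, and 52.8% of promoter entries held it. For Zic2 the gene is named only.

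BrafV600E organoids in Base medium were more methylated than their own line's empty-vector organoids at most listed Zic tiles. In line 1, 29 of 30 tiles gained and 1 lost, and in line 3, 16 of 20 gained and 4 lost, per the authors' deposited tables. The gains had a median of 42.9 points in line 1 and 35.8 points in line 3, per the authors' deposited tables, against 42.8 and 44.1 points over all listed gains. Gains made up 67.5% of 15305 tiles in line 1 and 40.4% of 29949 tiles in line 3 as a whole. The share of gains among Zic tiles, at 96.7% in line 1 and 80.0% in line 3, is what the choice of these genes could itself produce and is read no further.

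At the Zic1 and Zic4 pair the windows overlap, and 12 of the 27 distinct tiles belong to both genes. Zic1 (chr9:91358058-91365768, minus strand) carried 8 gains and 0 losses with BrafV600E in line 1, between 25.2 and 73.3 points, per the authors' deposited tables. In line 3 it carried 5 gains between 22.1 and 53.4 points and 1 loss of -41.8 points according to the authors' deposited tables. Averaged over tiles and then over lines, the Zic1 difference was 34.2 ± 18.4 points (SD, n = 2 lines) according to the authors' deposited tables. Both lines were above 0, at 47.2 points in line 1 and 21.2 points in line 3, per the authors' deposited tables.

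Some tiles near the Zic1 start gained in both lines and others were listed in one line only. The largest Zic1 gain in line 1 was at chr9:91363601-91363800, inside Zic1, where BrafV600E organoids were 73.3 points higher in line 1 (q = 1.42e-64) and 35.05 points higher in line 3 (q = 1.90e-19) according to the authors' deposited tables. On the other side of the start, chr9:91366801-91367000 was 50 points higher in line 1 and 53.4 points higher in line 3, and chr9:91367601-91367800 was 25.2 and 22.1 points higher, according to the authors' deposited tables. These 3 tiles were the ones near the Zic1 start listed as gains in both lines. The tile that covers the start itself and part of the promoter printed above, chr9:91365601-91365800, was 31.1 points higher in line 1 and was not listed in line 3, per the authors' deposited table.

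Zic4 (chr9:91365631-91389351, plus strand) had 14 gains and 0 losses with BrafV600E in line 1 and 7 gains and 2 losses in line 3, per the authors' deposited tables. As many gains as in line 1 were found at 12 of 21887 genes, counting Zic4 itself. The choice of these genes could itself produce this rank, and the window of 27.7 kb is the longest of the 4. Of the line 1 gains, 7 of 14 lay in the part shared with Zic1. In the part of its own, line 1 had 7 gains averaging 36.1 points, and line 3 had 2 gains averaging 53.2 points and 2 losses averaging -55.9 points, per the authors' deposited tables. Outside the part shared with Zic1, line 1 was thus listed with gains alone and line 3 with both directions.

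**Figure D1:**
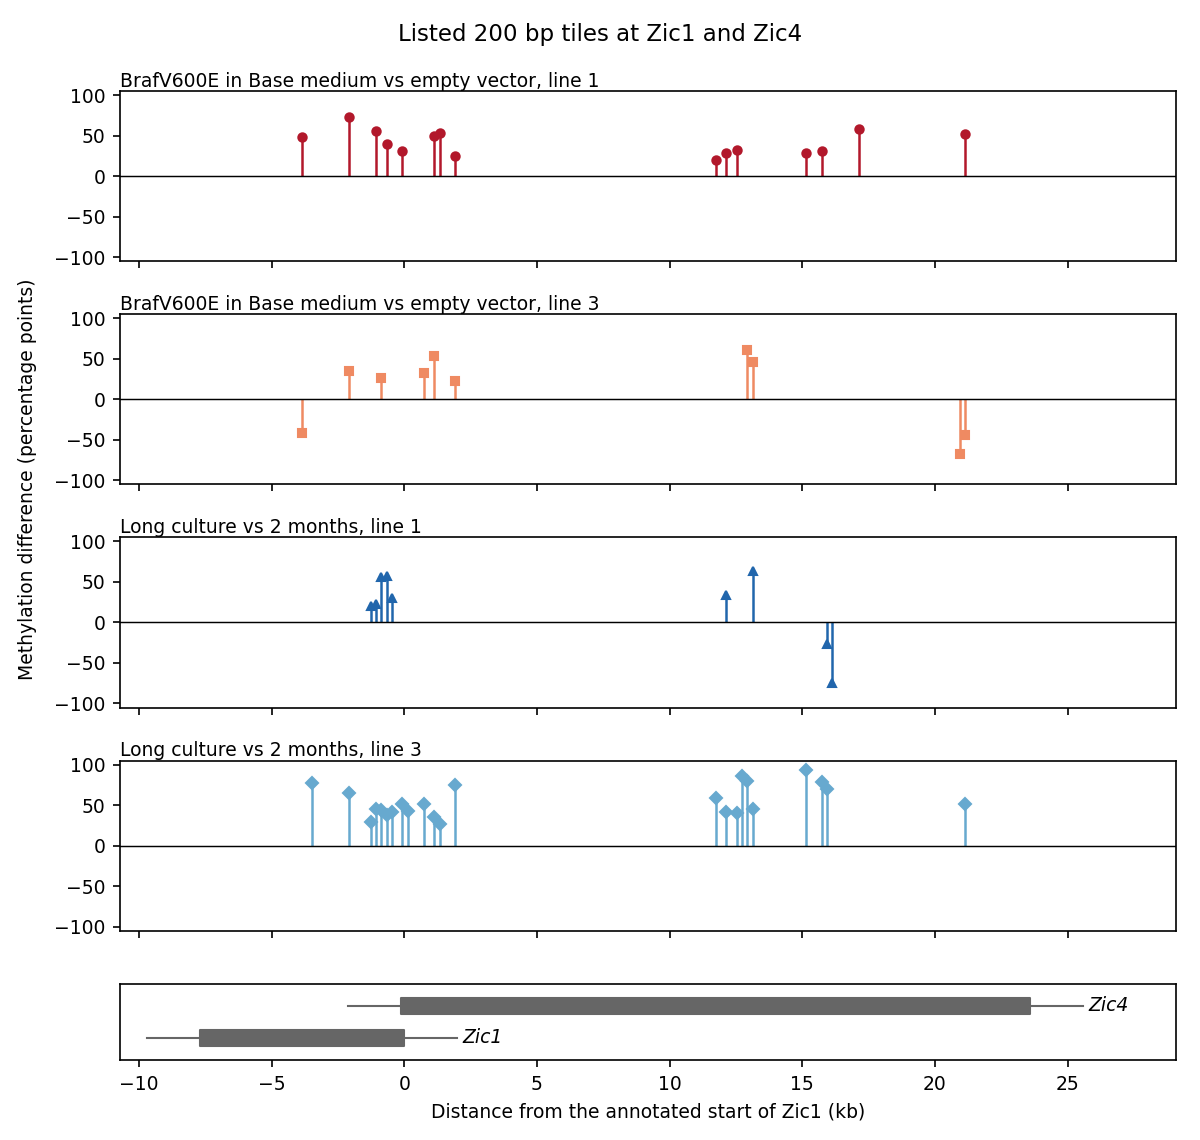
Tiles listed at Zic1 and Zic4. The horizontal axis is the distance of each tile's centre from the annotated start of Zic1 in kb, the vertical axis the methylation difference in percentage points, and each panel is 1 within-line comparison. Bars below mark the gene spans and thin lines the 2 kb on either side. Tiles cluster around the Zic1 start and in the middle of Zic4, with a gap of 9.6 kb between them in which no tile was listed.

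The tiles of this pair fell into 3 runs when tiles of any table within 2 kb were joined. The first run spanned 6.0 kb around the Zic1 start with 14 tiles, the next 5.6 kb inside Zic4 with 11 tiles, and the last held 2 tiles near the far end of Zic4. Between the first and the next run, 9.6 kb held no listed tile, and the promoter entry of Zic4 lies in that gap. In the run inside Zic4, BrafV600E organoids had 6 gains averaging 33.3 points in line 1 and 2 gains averaging 53.2 points in line 3, per the authors' deposited tables. No tile in that run was listed in both lines with BrafV600E.

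Zic2 (chr14:122475384-122480328) gained in both lines with BrafV600E and lost at none of its listed tiles. Line 1 had 8 gains between 23.3 and 75.5 points, and line 3 had 5 between 20.6 and 70.0 points, per the authors' deposited tables. Its mean difference was 44.6 ± 9.91 points (SD, n = 2 lines), from 51.6 points for line 1 and 37.5 points for line 3, according to the authors' deposited tables, the highest of the 4 genes in this comparison. The largest difference in line 1 was 75.5 points at chr14:122475601-122475800 (q = 1.36e-57) and in line 3 70.0 points at chr14:122478401-122478600 (q = 6.24e-12) according to the authors' deposited tables. Only chr14:122475801-122476000 was listed in both lines, at 67.8 points in line 1 and 36.5 points in line 3, per the authors' deposited tables. In line 1 the gains lay from just below the gene into its first part, while line 3 also gained further along the gene, between 122478401 and 122478800.

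Of the 18 distinct Zic2 tiles, 6 overlap the lncRNA gene 2610035F20Rik, which ends just below Zic2, so those cannot be assigned to either gene. A second lncRNA gene, Gm33769, reaches into the window and overlapped 0 listed tiles.

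Zic5 (chr14:122459160-122465658, minus strand) had 6 gains and 1 loss with BrafV600E in line 1, and 4 gains and 1 loss in line 3, per the authors' deposited tables. The mean difference was 31.4 ± 2.00 points (SD, n = 2 lines) according to the authors' deposited tables, from 32.8 points for line 1 and 30.0 points for line 3. With tiles of at least 40 points alone it was 54.7 ± 4.08 points (SD, n = 2 lines), per the authors' deposited tables. Both lines gained at chr14:122464201-122464400, by 42.9 points for line 1 and 21.6 points for line 3, according to the authors' deposited tables. They also both gained at chr14:122464401-122464600, by 30.3 points for line 1 and 49.8 points for line 3, according to the authors' deposited tables. At chr14:122463601-122463800 the lines were opposite, with a gain of 52.0 points in line 1 and a loss of -24.5 points in line 3, per the authors' deposited tables. The largest gain in line 3, 65.4 points (q = 1.78e-06) according to the authors' deposited table, was the tile over the Zic5 promoter printed above, and that tile was not listed in line 1. In line 1 the largest gain was 60.6 points (q = 1.98e-12) at chr14:122463401-122463600 according to the authors' deposited table. All 9 distinct Zic5 tiles lay in the 2.4 kb around and just downstream of its start, and the windows of Zic5 and Zic2 shared no tile.

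**Figure D2:**
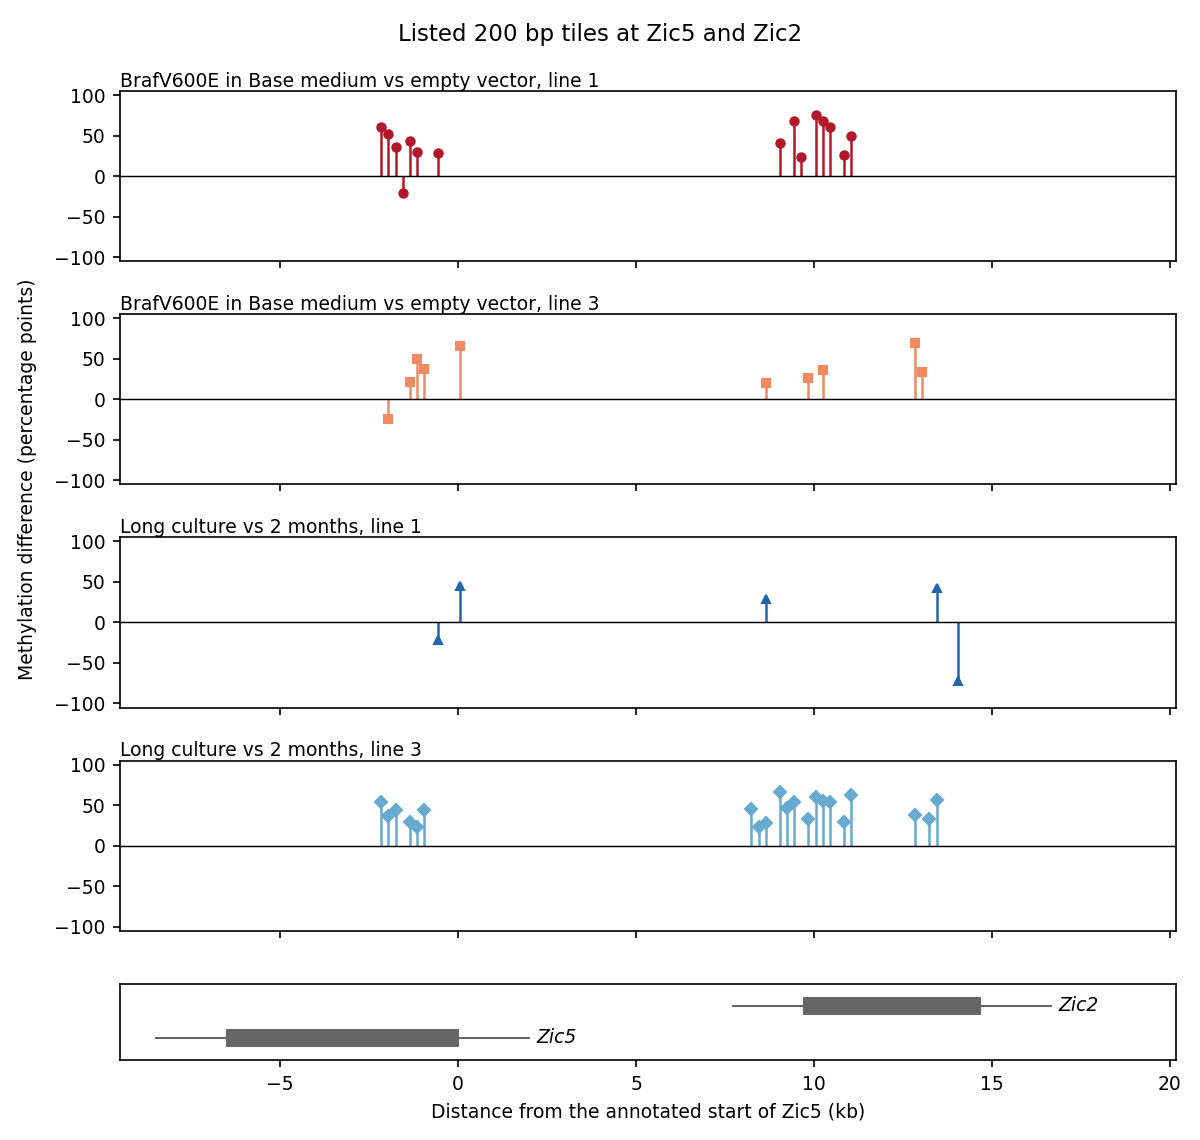
Tiles listed at Zic5 and Zic2. The horizontal axis is the distance of each tile's centre from the annotated start of Zic5 in kb, the vertical axis the methylation difference in percentage points, and each panel is 1 within-line comparison. Bars below mark the gene spans and thin lines the 2 kb on either side. Long culture gave 21 gains in line 3 and 3 gains with 2 losses in line 1.

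Across the 4 genes, 9 tiles were listed in both lines with BrafV600E, which is 30.0% of the line 1 tiles and 45.0% of the line 3 tiles. Of these, 6 gained in both lines and 3 had opposite directions. The share moving one way in both lines was 66.7% at the Zic genes, beside 73.9% over all such tiles.

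Long culture without the oncogene was listed at the same genes. Zic tiles were 44 of the 21524 listed tiles in line 3 and 14 of 8263 in line 1. The larger number in line 3 is thus also seen over all tiles. Organoids of 14 months in line 3 gained at 44 Zic tiles and lost at 0, while organoids of 12 months in line 1 gained at 10 and lost at 4, each against 2 months, per the authors' deposited tables. Gains had a median of 45.0 points in line 3 and 38.7 points in line 1, per the authors' deposited tables, against 44.2 and 39.5 points over all listed gains. Gains made up 71.9% of 21524 tiles in line 3 and 40.9% of 8263 tiles in line 1 as a whole. The culture times differ between the lines, so time and line cannot be told apart.

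At Zic1, long culture gave 13 gains between 26.5 and 77.4 points in line 3 and 5 gains between 20.3 and 56.8 points in line 1, with 0 losses in either, per the authors' deposited tables. The mean was 42.4 ± 7.47 points (SD, n = 2 lines), from 47.7 points for line 3 and 37.1 points for line 1, according to the authors' deposited tables. The 5 line 1 tiles lay side by side within Zic1, between 91364401 and 91365400, and each of them also gained in line 3. Among them chr9:91364801-91365000 was 56.4 points higher in line 1 (q = 3.06e-21) and 43.8 points higher in line 3 (q = 9.85e-26), and chr9:91365001-91365200 was 56.8 points higher in line 1 and 37.2 points higher in line 3, according to the authors' deposited tables. In line 3 the gains went on across the start, with 51.2 points at the tile over the start and 42.5 points at the next one, which covers most of the Zic1 promoter printed above, according to the authors' deposited table. The line 1 tables list neither of these with long culture.

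Zic4 had 22 gains and 0 losses in line 3, and 7 gains with 2 losses in line 1, per the authors' deposited tables. Counting Zic4 itself, 7 of 21887 genes had as many gains in line 3 and 21 in line 1. These ranks are not adjusted for its long window, and the choice of these genes could itself produce them. In the run inside Zic4, line 3 had 9 gains with a mean of 65.7 points, led by 93.1 points (q = 1.15e-25) at chr9:91380801-91381000, according to the authors' deposited table. Line 1 had 2 gains and 2 losses there according to the authors' deposited table, so its mean of -0.85 points hides tiles of both directions. The losses in line 1 were -26.0 points at chr9:91381601-91381800 and -75.0 points at chr9:91381801-91382000 according to the authors' deposited table. At chr9:91381601-91381800 line 3 was 69.8 points higher according to the authors' deposited table, opposite to line 1.

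Zic2 had 15 gains and 0 losses in line 3, between 23.3 and 65.7 points, and 2 gains with 1 loss in line 1, per the authors' deposited tables. The line 1 gains, 28.8 points at chr14:122474201-122474400 and 43.1 points at chr14:122479001-122479200, were also gains in line 3, at 27.4 and 55.8 points, according to the authors' deposited tables. The line 1 loss was -72.5 points at chr14:122479601-122479800 (q = 0.0087), a tile listed in no other comparison, according to the authors' deposited table. The mean was 22.7 ± 32.3 points (SD, n = 2 lines) according to the authors' deposited tables, so the spread between lines exceeded the mean. In line 1 the loss cancelled the gains, for a mean of -0.18 points according to the authors' deposited table.

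Zic5 had 6 gains and 0 losses in line 3, between 22.6 and 53.6 points, per the authors' deposited table. In line 1 it had 1 gain, 44.6 points at the tile over the promoter printed above, and 1 loss, -21.6 points at chr14:122465001-122465200, per the authors' deposited table. None of the Zic5 tiles was listed in both lines with long culture. Its mean was 24.9 ± 19.0 points (SD, n = 2 lines), from 38.3 points for line 3 and 11.5 points for line 1, according to the authors' deposited tables. The line 1 value rests on 1 gain and 1 loss.

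**Figure D3:**
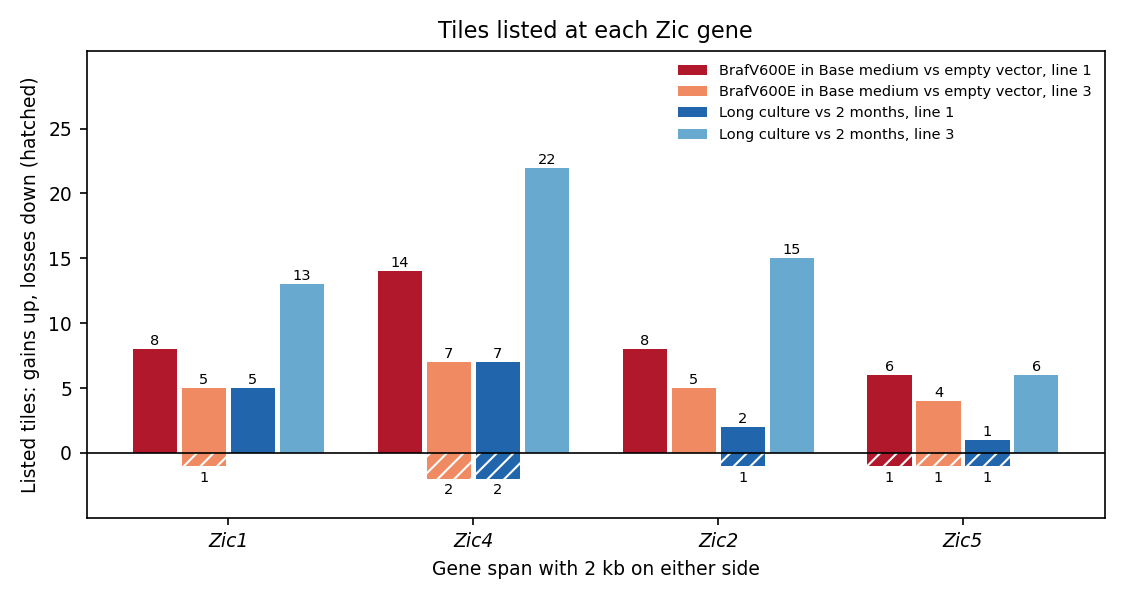
Number of tiles listed at each Zic gene. Bars above 0 count gains and hatched bars below 0 count losses, with 1 bar for each within-line comparison. Zic4 has the most gains in each comparison, up to 22 with long culture in line 3, and Zic5 the fewest in each.

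In long culture, 10 Zic tiles were listed in both lines, 71.4% of the line 1 tiles and 22.7% of the line 3 tiles, and 9 of the 10 gained in both. Over all tiles listed in both lines, 68.5% had one direction, and 1754 of 3220 gained in both. The choice of these genes could itself produce the agreement at Zic tiles, which is read no further.

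All 4 genes had at least 1 gain in each of the 4 within-line comparisons, and 3.93% of 21887 protein-coding genes did. At least 1 gain was listed at 17.8% of genes with BrafV600E in line 1, 20.9% in line 3, and with long culture at 8.55% in line 1 and 20.3% in line 3. With 5 or more gains were 1.7%, 1.82%, 0.27% and 4.03% of genes in that order, and Zic1 and Zic4 reached 5 in each comparison. These 2 genes are not separate counts, because their windows overlap. With BrafV600E in line 3 and long culture in line 1, all 5 Zic1 gains were tiles shared with Zic4. Zic4 had 2 further gains of its own in each of these comparisons. Zic2 reached 5 in all but the long culture comparison of line 1, where it had 2, and Zic5 in the BrafV600E comparison of line 1 and the long culture comparison of line 3. These shares are not adjusted for gene length or CpG content, and the choice of the Zic genes could itself produce their counts.

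The comparisons of one line use different control libraries, and their Zic tiles are set side by side here. In line 3, 16 tiles were listed both with BrafV600E and with long culture. Of them, 14 had the same direction, all gains, beside 51.9% with the same direction over all tiles listed in both. In line 1 the number was 4 tiles, of which 3 had the same direction, all gains, beside 48.9% over all tiles. Gains in both made up 2783 of 6964 such tiles in line 3 as a whole and 847 of 2384 in line 1. The genes were chosen on these differences, so the choice could itself produce this agreement, which is read no further. No Zic tile was listed in all 4 comparisons, 14 were listed in 3, 26 in 2 and 14 in 1. Of the 54 tiles, 45 were listed only as gains, 4 only as losses and 5 in both directions.

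Among the 14 tiles listed in 3 comparisons, 12 gained in each of the 3. The pair of exceptions lost methylation with BrafV600E in line 3, by -43.7 points near the far end of Zic4 and -24.5 points in Zic5, according to the authors' deposited table. The Zic2 tile chr14:122475801-122476000 gained 67.8 points in line 1 and 36.5 points in line 3 with BrafV600E and 55.6 points in line 3 with long culture, according to the authors' deposited tables. Within Zic1, chr9:91364601-91364800 gained 56.1 points with BrafV600E in line 1, and 22.3 points in line 1 and 45.1 points in line 3 with long culture, according to the authors' deposited tables. At the Zic4 tile chr9:91378801-91379000 the gains were 45.8 points with BrafV600E in line 3, and 63.4 points in line 1 and 44.8 points in line 3 with long culture, according to the authors' deposited tables.

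**Figure D4:**
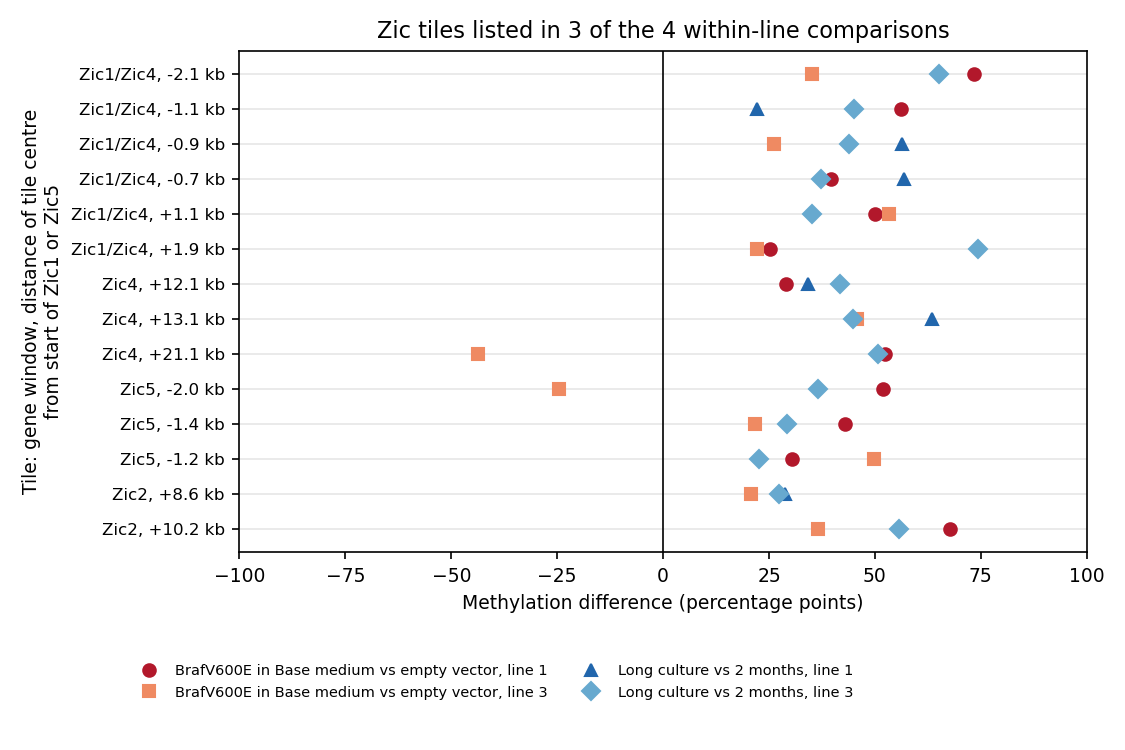
The 14 Zic tiles listed in 3 of the 4 within-line comparisons. Each line across is 1 tile, named by its gene window and the distance of its centre from the start of Zic1 or Zic5, and the horizontal axis is the methylation difference in percentage points. Points mark the comparisons, and 12 of the 14 tiles have all 3 points above 0.

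Just inside the limits of listing, the smallest Zic differences were 20.4 points with BrafV600E in line 1, 20.6 points in line 3, and with long culture 20.3 points in line 1 and 22.6 points in line 3, per the authors' deposited tables. Tiles just outside the windows included a gain of 70.0 points with BrafV600E in line 3 at chr14:122482601-122482800, above Zic2, according to the authors' deposited table. Below Zic1, BrafV600E in line 3 had a loss of -25.0 points at chr9:91354201-91354400 and a gain of 70.2 points at the adjoining chr9:91354001-91354200, according to the authors' deposited tables. Long culture in line 3 had a gain of 76.3 points at chr9:91352001-91352200, according to the authors' deposited table.

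More tiles were listed within the Zic pairs than around them, which the choice of these genes on their listed tiles could itself produce. In the 35.3 kb of Zic1 and Zic4, 9 to 23 tiles were listed per comparison, against 1 to 4 in the 100 kb on both sides. In the 25.2 kb of Zic5 and Zic2 the numbers were 5 to 21, against 4 to 7 in the flanks. Per 10 kb this was 1.99 to 8.34 tiles in the pairs against 0.05 to 0.35 in the flanks. How many tiles were covered in the flanks was not analysed here.

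Related and pathway genes were taken from a list of 19, with 6 GLI relatives and 13 genes of the Hedgehog pathway. With BrafV600E, 6 of the 19 had gains without losses in line 1 and 6 in line 3, 1 had losses without gains in each line, and 5 in line 1 and 9 in line 3 had both. With long culture, 2 had gains without losses in line 1 and 8 in line 3, against 4 and 2 with losses without gains, and 2 and 4 with both. Over all genes, gains without losses were found at 13.3% with BrafV600E in line 1 and 12.1% in line 3, and with long culture at 5.74% in line 1 and 14.8% in line 3. Losses without gains were found at 6.0% and 11.5% of genes with BrafV600E and at 8.06% and 6.71% with long culture, in lines 1 and 3. With or without losses, 11 and 15 of the 19 had a gain with BrafV600E in lines 1 and 3, against 17.8% and 20.9% of all genes. With long culture 4 and 12 had a gain, against 8.55% and 20.3%. For all genes, the share with both directions is the share with a gain less the share with gains without losses. These were 17.8% and 13.3% with BrafV600E in line 1, and 20.9% and 12.1% in line 3. With long culture they were 8.55% and 5.74% in line 1, and 20.3% and 14.8% in line 3. The list holds long genes, and no share is adjusted for gene length.

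By number of listed tiles the leading genes of the list were Glis1, Gli2, Shh, Gas1 and Glis3, with 28, 25, 17, 16 and 14 over the 4 comparisons. These counts are not adjusted for gene length, so the order is not one of tile density. The spans of these genes run from chr13:60174405-60177535 for Gas1 to chr19:28258851-28680265 for Glis3. Shh, the ligand of the pathway, had 7 gains and 1 loss with BrafV600E in line 1, 4 gains in line 3, and with long culture 0 tiles in line 1 and 5 gains in line 3, per the authors' deposited tables. Gas1, a co-receptor, had 6 gains and no tile with BrafV600E in lines 1 and 3, and 3 and 7 gains with long culture, with 0 losses in any, per the authors' deposited tables. Gli2, the main activator among the GLI factors, had 5 gains and 1 loss in line 1 but 3 gains and 7 losses in line 3 with BrafV600E, and with long culture 2 gains and 2 losses in line 1 and 5 gains in line 3, per the authors' deposited tables. Glis1 had 6 gains and 1 loss with BrafV600E in line 1, 5 and 4 in line 3, and with long culture 0 and 1 in line 1 and 10 and 1 in line 3, per the authors' deposited tables. Glis3 had 0 tiles with BrafV600E in line 1 and 3 gains and 4 losses in line 3, and with long culture 0 and 1 in line 1 and 5 and 1 in line 3, per the authors' deposited tables. Cdon was the member with 0 tiles in every comparison.

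Genes whose pattern was most like each pair were found by the distance between the mean differences in the 4 within-line comparisons, among genes with at least 3 listed tiles in each. For Zic1 and Zic4, with means of 42.0, 12.2, 20.2 and 54.9 points with BrafV600E in lines 1 and 3 and long culture in lines 1 and 3, per the authors' deposited tables, the nearest of 380 genes were Nkx2-3, Kcnb2 and Wt1 at distances of 16.2, 17.7 and 17.9 points. The median distance of those genes was 58.6 points. For Zic2 and Zic5, with means of 42.8, 33.8, 4.50 and 43.5 points in the same order, the nearest of 381 genes were Sim2, Hoxa11 and Scarf2 at 10.4, 11.6 and 12.1 points, against a median of 62.6 points, from the authors' deposited tables. Sim2 had means of 47.8, 33.6, 11.5 and 49.3 points and Nkx2-3 had 48.8, 21.1, 18.3 and 43.3 points in that order according to the authors' deposited tables. This likeness rests on 4 values per gene, and the nearest genes lie below the median distance by construction. The means can also join gains and losses. For Zic2 and Zic5 with long culture in line 1, 3 gains averaged 38.8 points and 2 losses -47.0 points, per the authors' deposited tables.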

How the data were processed

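Bisulfite libraries were sequenced as 50 bp single-end reads, per the labels' protocols. The submitters' processing notes name methylKit 1.7.4, Bismark 0.14.3, Trim Galore 0.4.4, FastQC 0.11.7 and the build GRCm38 (mm10). Their settings and any coverage minimum were not given in the sources used here. Per the file headers, the 8 tables that the authors deposited hold the methylation difference of each 200 bp tile in percent with its p-value and q-value, and gains and losses stand in separate tables.

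Tiles overlapping a gene span of the RefSeq table of GRCm38.p6 by any amount, with 2 kb on either side, were counted for that gene with Python 3.11.15 and pandas 2.3.3. The overlap count was tested on simulated data. Means are over listed tiles, then over lines. No test was run: q-values are the authors' and compare 1 library with 1 library. Members and lists were chosen with earlier results of these data known. Of the list of related genes, 1 is not reported here. Tiles named singly were the largest of a gene in a comparison, those listed in at least 3 comparisons, and others chosen after their values were seen. Alternatives were windows of 0, 1 and 5 kb, stricter limits, tiles wholly inside, merged tiles and leaving out a line.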

Additional observations from a re-analysis of the deposited data

Results flagged for a closer look

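Lines 1 and 3 had opposite directions at 4 Zic tiles, each a gain in one line and a loss in the other under the same comparison. With BrafV600E against empty vector, chr9:91361801-91362000 in Zic1 differed by 48.9 points in line 1 and -41.8 points in line 3, per the authors' deposited tables. At chr9:91386801-91387000 in Zic4 the differences were 52.3 points in line 1 and -43.7 points in line 3, per the authors' deposited tables. At chr14:122463601-122463800 in Zic5 they were 52.0 points in line 1 and -24.5 points in line 3, per the authors' deposited tables. With long culture against 2 months, chr9:91381601-91381800 in Zic4 differed by -26.0 points in line 1 and 69.8 points in line 3, per the authors' deposited tables. The difference between the lines was not tested at any of these tiles, since each line is 1 library against 1 library.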

How the results depend on the processing

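Summed over both lines, the 4 genes had 45 gains and 5 losses with BrafV600E and 54 gains and 4 losses with long culture. Gains outnumbered losses under every alternative run and in each line. The alternatives recount tiles of genes chosen on these same differences. The choice could itself produce this and the signs of the means below. A minimum difference of 40 points left 22 gains and 3 losses with BrafV600E and 36 gains and 2 losses with long culture. A q-value under 0.001 left 35 gains and 3 losses with BrafV600E and 48 gains and 2 losses with long culture. Merging tiles within 500 bp gave 20 gains and 2 losses with BrafV600E, and 14 and 2 with long culture. Leaving out a line gave 16 to 29 gains and 1 to 4 losses with BrafV600E, and 10 to 44 gains and 0 to 4 losses with long culture, by construction since fewer tables are counted. Of 72 alternative values of the mean difference per gene, 71 were above 0; without line 3 the Zic2 mean with long culture was -0.18 points and without line 1 45.6 points, against 22.7, because 1 loss then offsets 2 gains. The share of all genes with a gain with BrafV600E, averaged over lines, was 17.2% in windows of 0 kb and 21.6% in windows of 5 kb, against 19.4%. The Zic5 mean with BrafV600E was 54.7 points with tiles of at least 40 points, against 31.4, and with long culture 45.9 points, against 24.9, since smaller differences are then left out. A q-value under 0.001 gave a Zic2 mean with long culture of 45.5 points, against 22.7. In line 1 this limit left out the loss of -72.5 points and the gain of 28.8 points. Only the gain of 43.1 points remained in that line. Leaving out a line gave Zic5 means with long culture of 11.5 to 38.3 points. No paired analysis was possible because the results come from no test to which a block could be added; the deposited differences are themselves paired within a line, and their mean and SD over the lines are given. Unknown depth and unlisted tiles limit every count.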

Other observations

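Outside the Zic windows, the tile chr14:122450601-122450800 was listed in all 4 within-line comparisons, which no Zic tile was. It lies in the lncRNA gene Gm5089, 8.36 kb below the Zic5 span, and was chosen after its values were seen. BrafV600E organoids were 40.1 points higher in line 1 and 29.7 points higher in line 3, and long culture was 24.8 points higher in line 1 and 24.6 points higher in line 3, according to the authors' deposited tables. Further inside Gm5089, chr14:122407001-122407200 was 56.2 points higher with BrafV600E in line 1, and with long culture 41.9 points higher in line 1 and 83.2 points higher in line 3, according to the authors' deposited tables. Beyond Zic4, the tile chr9:91420601-91420800 in the lncRNA gene Gm29478 had opposite directions with long culture, at -46.3 points in line 1 and 56.0 points in line 3, per the authors' deposited tables.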
